A study of Homo sapiens with 12 samples.

Results

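The epithelial-to-mesenchymal transition (EMT) transcription factors and their epithelial antagonists were examined as 10 genes of the 48114 that the deposited tables list, found by their symbols. They comprise 7 factors that induce EMT (ZEB1, ZEB2, SNAI1, SNAI2, TWIST1, TWIST2 and PRRX1) and 3 that maintain the epithelial state (OVOL1, OVOL2 and GRHL2). RNA was sequenced from 2 human pancreatic ductal adenocarcinoma (PDAC) cell lines, each a single established line: PANC-1, which the study uses as basal-like, and HPAF-II, which it uses as classical. PANC-1 cells received a control siRNA (siCtrl) or siRNAs at 40 nM against the RNA-binding proteins QKI (siQKI) or RBFOX2 (siRBFOX2) and were collected after 48 h, and HPAF-II cells received siCtrl only, with 3 libraries in each of the 4 groups. All groups thus carry a transfected siRNA. The labels do not say whether libraries of a group came from separate cultures, so p-values measure the spread between these libraries, which may be technical.

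ZEB1 and ZEB2 are zinc finger and homeodomain repressors, and SNAI1 (Snail) and SNAI2 (Slug) are zinc finger repressors; both families bind E-box sequences in promoters of epithelial genes such as CDH1, which encodes E-cadherin. TWIST1 and TWIST2 are basic helix-loop-helix proteins that bind DNA as dimers with E proteins, and ID proteins sequester the E proteins. PRRX1 is a paired-related homeodomain factor of mesenchyme. OVOL1 and OVOL2 are zinc finger repressors and GRHL2 is a Grainyhead-like activator; OVOL2 and GRHL2 oppose ZEB1, which in turn represses epithelial genes. In PDAC these factors are known for the invasive behaviour of poorly differentiated tumors.

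The E-box that ZEB and Snail proteins read was searched as CAGGTG or CACCTG, which are the same site on either strand, in 300-base promoter windows from RefSeq (GRCh38.p14, 250 bases before to 50 after each start site). Windows were found for 4 of the 10 members (ZEB1, ZEB2, TWIST2 and PRRX1; 10 windows), and 2 of these 10, both of ZEB1, held an E-box, beside 20.6% of all 35116 windows. Of the 20 windows of 16 epithelial genes listed below, 12 (60.0%) held one. That list was chosen for genes that these repressors are known to act on, so this share is not read as a result. The windows of ZEB1, as the member with E-boxes, and of TJP3 and CDS1, as epithelial genes that rose after QKI depletion, are shown 5′ to 3′ with the E-boxes in capitals. Only windows with an E-box are shown. Another 5 windows of ZEB1 and 1 of TJP3 held none, as did the 1 window of CLDN4, an epithelial gene that fell. The ZEB1 E-box lies at position -57 in the first window, counted from the start site, and the E-boxes lie at -7 in TJP3 and at -27 in CDS1. A match is a description of the letters and not a bound site. No window was found for CDH1, LLGL2 or PLEKHA7. Whether epithelial genes that rose hold E-boxes more often than those that fell or were not called was not tested.
ZEB1, chr10:31318167-31318466 (+): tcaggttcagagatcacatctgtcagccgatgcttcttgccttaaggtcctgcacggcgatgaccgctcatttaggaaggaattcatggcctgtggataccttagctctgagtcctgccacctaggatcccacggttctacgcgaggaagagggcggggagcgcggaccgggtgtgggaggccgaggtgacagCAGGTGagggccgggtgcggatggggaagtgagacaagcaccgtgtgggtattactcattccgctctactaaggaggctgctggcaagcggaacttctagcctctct
ZEB1, chr10:31318966-31319265 (+): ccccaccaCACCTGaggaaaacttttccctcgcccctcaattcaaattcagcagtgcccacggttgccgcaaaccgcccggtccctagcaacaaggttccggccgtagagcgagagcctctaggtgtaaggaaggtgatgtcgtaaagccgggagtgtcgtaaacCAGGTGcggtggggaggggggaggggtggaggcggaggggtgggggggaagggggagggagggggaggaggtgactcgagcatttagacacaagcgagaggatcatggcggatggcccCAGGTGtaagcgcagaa
TJP3, chr19:3721487-3721786 (+): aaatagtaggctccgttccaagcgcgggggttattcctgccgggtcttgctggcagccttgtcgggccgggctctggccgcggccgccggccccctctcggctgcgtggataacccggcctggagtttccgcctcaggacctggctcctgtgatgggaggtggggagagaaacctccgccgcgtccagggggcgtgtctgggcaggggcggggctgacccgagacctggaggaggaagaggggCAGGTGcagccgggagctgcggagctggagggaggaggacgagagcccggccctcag
CDS1, chr4:84582877-84583176 (+): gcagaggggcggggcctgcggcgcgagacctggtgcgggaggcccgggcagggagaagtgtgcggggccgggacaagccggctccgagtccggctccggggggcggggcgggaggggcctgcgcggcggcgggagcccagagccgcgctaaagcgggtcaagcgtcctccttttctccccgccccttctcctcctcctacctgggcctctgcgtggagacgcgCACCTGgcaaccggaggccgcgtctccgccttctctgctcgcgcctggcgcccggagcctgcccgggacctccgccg

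Values are normalized counts, that is gene counts that the authors scaled with DESeq2 size factors; no counts of fragments can be recovered from them, so precision was taken from the replicates. Library totals, in the smallest steps of each library, ran from 292248837 to 376192091 in PANC-1 and from 226697015 to 309720537 in HPAF-II. QKI was 25909, 24539 and 26150 normalized counts in siCtrl libraries and 4630, 5453 and 5020 in siQKI libraries. RBFOX2 was 15355, 15508 and 15424 in siCtrl and 2403, 2171 and 1712 in siRBFOX2 libraries. Each targeted gene was thus low in the libraries named for it. RBFOX2 was also lower in siQKI libraries, at 12629, 12778 and 12520. By the limma test described below its log2 fold change there was -0.29 (adjusted p = 0.0207), a call lost under 6 of 17 alternative settings. QKI in siRBFOX2 libraries did not pass (0.13, adjusted p = 0.105 from limma). Epithelial markers (6 of 6 detected: EPCAM, KRT8, KRT18, KRT19, KRT7 and CDH1) were summed after rescaling each library to a total of 1000000. The sums lay between 2133 and 2715 in PANC-1, nearly all of it KRT8, KRT18 and KRT19, and between 10943 and 11850 in HPAF-II. The 4 immune markers summed to 0.815 to 1.6 in PANC-1, nearly all of it CD14, with CD3E listed at 0 and PTPRC at 0.0632 or less, and to 1053 to 1166 in HPAF-II, nearly all of it LYZ.

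PANC-1 siCtrl cells carried mostly SNAI1, ZEB1 and TWIST2 RNA. Levels of different genes were compared only per kilobase of exon, after rescaling each library to a total of 1000000. Exon lengths came from another annotation than the counts, so these levels are approximate. On this scale the siCtrl mean was 4.79 for SNAI1 and 4.41 for ZEB1, whose libraries overlapped, followed by 1.93 for TWIST2. OVOL2 came next at 0.578 and overlapped with SNAI2 at 0.255, and PRRX1, ZEB2, OVOL1 and GRHL2 lay between 0.00643 and 0.0305. TWIST1 was listed at 0 in all 12 libraries. HPAF-II cells had another order, with OVOL2 at 12.4, GRHL2 at 6.07 and OVOL1 at 4.18, the last pair overlapping, above SNAI1 at 1.22, SNAI2 at 0.777, ZEB1 at 0.167 and ZEB2 at 0.00527.

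**Figure D1:**
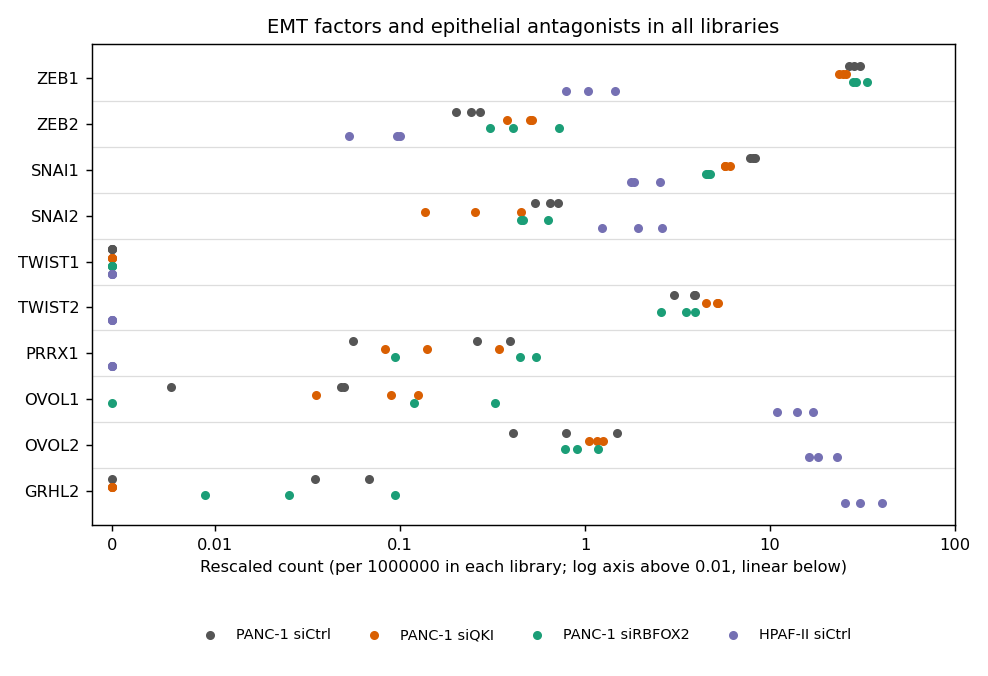
Rescaled count of each member (horizontal axis, per 1000000 in each library, log scale above 0.01 and linear below) in the 12 libraries, each point 1 library and each colour 1 of the 4 groups. ZEB1 lies near 28.7 in PANC-1 siCtrl and near 1.09 in HPAF-II, GRHL2 near 32.2 in HPAF-II and at or near 0 in PANC-1, and SNAI2 is the 1 EMT-inducing factor with higher values in HPAF-II.

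The lines were then compared member by member, to ask how far the classical and the basal-like line differ in these factors. All 3 antagonists had more RNA in HPAF-II than in siCtrl-treated PANC-1 cells, and ZEB1, ZEB2, SNAI1, TWIST2 and PRRX1 were lower. All 9 members detected differed by at least 2-fold with libraries that did not overlap, a pattern seen for 42.7% of the 24673 genes compared. The 4 higher members stand beside 21.1% of genes called higher and the 5 lower members beside 21.6% called lower. The tables of the lines were normalized apart and each line is 1 line, so no test was run, and line, culture and normalization cannot be told apart.

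GRHL2 was listed at 8635, 11523 and 7256 normalized counts in HPAF-II libraries and at 23.0, 12.0 and 0 in PANC-1 siCtrl libraries. Rescaled, its mean was 32.2 ± 7.38 (SD, n = 3) against 0.0341 ± 0.0339 (SD, n = 3), a log2 ratio of 9.51 with a pseudocount of 0.01 that was 7.91 with a pseudocount of 0.1 and 10.2 without PANC-1 siCtrl replicate 1. OVOL1 was at 3942, 3143 and 4842 in HPAF-II and at 16.3, 2.0 and 17.1 in PANC-1, a log2 ratio of 8.30, or 6.71 with the larger pseudocount. OVOL1 overlaps OVOL1-AS1 and an unnamed gene and the strand of the counts is not stated, so their reads may not be told apart. OVOL2 was at 5085, 4664 and 6588 in HPAF-II and at 138, 521 and 274 in PANC-1, a log2 ratio of 4.40. OVOL2 was thus the antagonist with the most RNA in PANC-1 cells, and the values of its 3 siCtrl libraries spread more widely than those of the HPAF-II libraries relative to their mean.

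ZEB1 was at 290, 415 and 225 normalized counts in HPAF-II, and its rescaled mean was 26.3-fold higher in PANC-1 siCtrl cells. SNAI1 was at 712, 510 and 520 in HPAF-II, where the rescaled mean was 2.05 ± 0.43 (SD, n = 3) against 8.07 ± 0.275 (SD, n = 3) in PANC-1, a log2 ratio of -1.97. Among the EMT-inducing factors SNAI1 had the highest mean per kilobase in HPAF-II. ZEB2 was at 14.8, 27.5 and 28.4 in HPAF-II, a log2 ratio of -1.42 that was -0.89 with a pseudocount of 0.1, short of 2-fold. TWIST2 and PRRX1 were listed at 0 in all 3 HPAF-II libraries. SNAI2 was the exception, at 731, 558 and 351 in HPAF-II and 241, 188 and 224 in PANC-1 siCtrl, a log2 ratio of 1.59.

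Depletion of QKI in PANC-1 cells lowered ZEB1, SNAI1 and SNAI2 and raised TWIST2. These 4 calls were made among the 8 members that passed a mean of 10 normalized counts over the 9 PANC-1 libraries (TWIST1 and GRHL2 did not), where 33.0% of all 22544 genes tested were called. Tests used limma on log2(normalized count + 1) in 1 fit of the 3 PANC-1 groups, with p-values adjusted over all genes by the Benjamini-Hochberg method and a threshold of 0.05. The added 1 makes fold changes of weakly expressed genes too small. In bulk RNA, fewer cells that express a gene and less RNA per cell cannot be told apart.

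SNAI1 (GSHG0026916; hg38, chromosome 20, 49982980 to 49988886) was at 2830, 2716 and 2780 normalized counts in siCtrl libraries and at 1907, 1996 and 1887 in siQKI libraries. The groups were well apart, and 69.5% of the siCtrl mean remained (log2 fold change -0.52, SE 0.08, adjusted p = 7.39e-05). ZEB1 (GSHG0003983; chromosome 10, 31318417 to 31529804) was at 9706, 9356 and 10575 in siCtrl and at 7836, 8462 and 8133 in siQKI libraries. All siQKI values lay below all siCtrl values, and 82.4% remained (log2 fold change -0.28, SE 0.06, adjusted p = 0.00249). ZEB1 overlaps ZEB1-AS1 and 2 unnamed genes and the strand of the counts is not stated, so reads of ZEB1 and these genes may not be told apart. ZEB1-AS1 itself was at 642 to 743 in siCtrl and 725 to 897 in siQKI libraries and did not pass the threshold (adjusted p = 0.111 from limma).

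SNAI2 was at 241, 188 and 224 normalized counts in siCtrl libraries and at 45.6, 147 and 83.9 in siQKI libraries. Its siQKI values spread widely but stayed below every siCtrl value (log2 fold change -1.38, SE 0.38, adjusted p = 0.0107). TWIST2 (GSHG0024971; chromosome 2, 238848032 to 238910543) was at 1314, 1374 and 1047 in siCtrl and at 1736, 1694 and 1478 in siQKI libraries. The siQKI values were all higher, and their mean was 131% of that in siCtrl. The TWIST2 call (log2 fold change 0.40, SE 0.14, adjusted p = 0.0459 from limma) was lost under 8 of 17 alternatives, with adjusted p-values up to 0.201. Among them were the fits without siCtrl replicate 1 or 3, siQKI replicate 1 or 2, or siRBFOX2 replicate 1. It was kept under the other 9, with SE 0.10 and an adjusted p of 0.00878 where the replicate number was a block.

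The other 4 members tested did not pass the threshold. ZEB2 was at 91.9, 70.0 and 83.5 normalized counts in siCtrl and at 169, 124 and 170 in siQKI libraries. No siQKI library overlapped with siCtrl, as in either direction for 44.7% of all genes tested and 5 of the 8 members, and the log2 difference was 0.90 (95% interval 0.15 to 1.65, adjusted p = 0.0645 from limma). Without siRBFOX2 replicate 2 its adjusted p was 0.0457. ZEB2 overlaps ZEB2-AS1, listed at 0 in all 12 libraries, and 2 unnamed genes.

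OVOL2 was at 138, 521 and 274 in siCtrl and at 415, 346 and 381 in siQKI libraries, a log2 difference of 0.49 (95% interval -0.26 to 1.24, adjusted p = 0.330 from limma). The siCtrl libraries span the siQKI values, and the difference was 0.96 (adjusted p = 0.0245) without siCtrl replicate 2 and 0.0078 (adjusted p = 0.990) without siCtrl replicate 1. OVOL1 was at 16.3, 2.0 and 17.1 against 29.6, 41.0 and 11.5 (95% interval of the log2 difference -1.68 to 4.42), and PRRX1 at 133, 90.9 and 19.1 against 46.8, 112 and 27.3 (-1.88 to 1.42). These intervals hold large changes in either direction. PRRX1 overlaps 2 unnamed genes, so the limit given for the reads of ZEB1 and OVOL1 holds for it too. GRHL2 was listed at 0 in all 3 siQKI libraries.

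**Figure D2:**
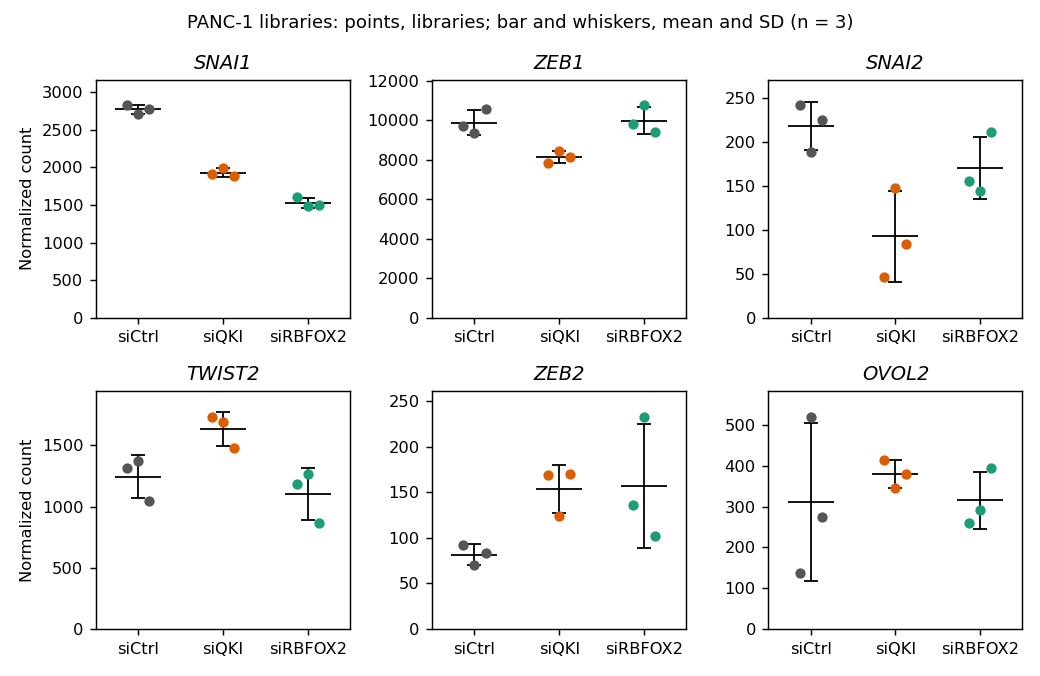
Normalized counts (vertical axes, each from 0) of 6 members in the 3 PANC-1 groups; points are libraries, bars and whiskers the mean and SD of 3 libraries. SNAI1 falls from a mean of 2775 in siCtrl to 1930 in siQKI and 1529 in siRBFOX2 with no overlap, ZEB1 and SNAI2 are lowest and TWIST2 highest in siQKI, and OVOL2 in siCtrl spreads from 138 to 521.

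Depletion of RBFOX2 lowered SNAI1 and no other member passed the threshold. This was 1 of the 8 members tested, where 26.5% of all genes were called. The siCtrl libraries are those of the siQKI comparison, so the 2 comparisons are not independent. SNAI1 was at 1602, 1488 and 1499 normalized counts in siRBFOX2 libraries, below every siCtrl and every siQKI library, and 55.1% of the siCtrl mean remained (log2 fold change -0.86, SE 0.08, adjusted p = 1.22e-06). ZEB1 was at 9795, 10768 and 9411, overlapping with siCtrl, with a log2 difference of 0.02 and a 95% interval of -0.12 to 0.15 (adjusted p = 0.888 from limma). That interval leaves out a fall of the size measured in siQKI cells.

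ZEB2 was at 137, 233 and 102 normalized counts in siRBFOX2 libraries, all above siCtrl. Libraries that did not overlap, in either direction, were found for 2 of 8 members (ZEB2, and SNAI1 in the other direction) and for 37.9% of genes. The log2 difference of 0.86 (95% interval 0.10 to 1.61) had an adjusted p of 0.0906 from limma. Without siRBFOX2 replicate 3 it was 1.13 with an adjusted p of 0.0399, and without siRBFOX2 replicate 2 it was 0.53 with 0.345. SNAI2 was at 156, 144 and 210 (95% interval of the log2 difference -1.18 to 0.44), TWIST2 at 1184, 1269 and 866 (-0.49 to 0.13) and OVOL2 at 261, 292 and 394 (-0.55 to 0.95). These 3 overlapped with siCtrl. PRRX1 was at 31.5, 143 and 181, OVOL1 at 109, 0 and 39.8 and GRHL2 at 31.5, 2.91 and 8.34, so that single libraries carried most of the signal of OVOL1 and GRHL2.

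The knockdowns were set against each other directly to ask which members differ between them, and 3 of the 8 members did, where 21.5% of genes were called. ZEB1 was lower in siQKI than in siRBFOX2 cells (log2 difference -0.29, SE 0.06, adjusted p = 0.00277). The libraries did not overlap for these 3 members, as for 35.2% of genes. TWIST2 was higher (0.58, SE 0.14, adjusted p = 0.00899), although the adjusted p was 0.0676 without the mean-variance trend. SNAI1 was higher in siQKI than in siRBFOX2 cells (0.34, SE 0.08, adjusted p = 0.00483). SNAI2 did not pass (log2 difference -1.01, 95% interval -1.82 to -0.20, adjusted p = 0.0730), and was -1.42 with an adjusted p of 0.0144 without siQKI replicate 2. The fall of SNAI2 after QKI depletion is thus not shown to differ from its value after RBFOX2 depletion.

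**Figure D3:**
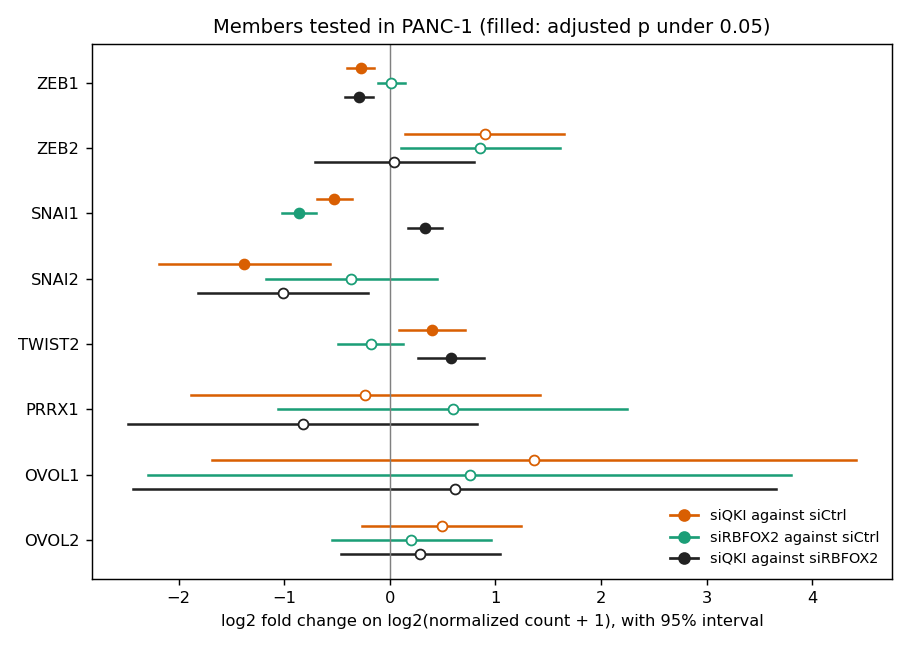
Log2 fold changes (horizontal axis, on log2(normalized count + 1)) of the 8 members tested, with 95% intervals, for siQKI and siRBFOX2 against siCtrl and for siQKI against siRBFOX2; filled points passed an adjusted p of 0.05. SNAI1 is left of 0 in both knockdowns (-0.52 and -0.86), ZEB1 is left of 0 in siQKI against siCtrl (-0.28) and near 0 in siRBFOX2 (0.02), and the intervals of PRRX1 and OVOL1 are the widest.

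Among the 9 PANC-1 libraries, the genes whose log2 values followed a member most closely were found among 15250 genes with a symbol. They were ULK1 (Pearson's r = 0.974) and SUPT7L (0.972) for ZEB1, BAG6 (0.997) and SLC25A37 (0.994) for SNAI1, and SNED1 (0.983) and RAET1G (0.975) for TWIST2. ULK1 is an autophagy kinase and SLC25A37 a mitochondrial iron importer. These are the highest of many values over libraries that share the 3 groups. ZEB1 and SNAI1 had r = 0.07 with each other, and ZEB1 and TWIST2 had r = -0.67.

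Paralogs and other EMT factors moved in both directions. Of 5 paralogs tested after QKI depletion, 2 were called, beside 33.0% of all genes: PRRX2 rose (log2 fold change 0.54, adjusted p = 0.00699 from limma) and GRHL3 fell (-0.33, adjusted p = 0.0385). PRRX2 was at 1841, 2638 and 2108 normalized counts in siCtrl and at 2746, 3674 and 3151 in siQKI libraries, with no overlap. GRHL3 was at 1876 to 2097 in siCtrl and 1417 to 1847 in siQKI libraries, and its call was lost under 7 of 17 alternatives. After RBFOX2 depletion GRHL1 rose from a siCtrl mean of 921 to 1317 (0.51, adjusted p = 0.00151). Of 12 other EMT factors tested, 2 rose and 2 fell after QKI depletion and 1 rose and 1 fell after RBFOX2 depletion, where 26.5% of all genes were called. HMGA2, a chromatin architectural protein that acts upstream of Snail, fell in both knockdowns (-0.48 and -0.36), and SOX4 rose in both (0.25 and 0.31). FOXQ1 fell in siQKI cells (-0.31), and its direct difference from siRBFOX2 cells did not pass (-0.14, adjusted p = 0.240 from limma). GSC, named after its values were seen, had a mean of 26.3 and an adjusted p of 0.0450 in siQKI cells, 0.0638 there with the replicate block, and 0.0599 in siRBFOX2 cells. Of the 12 other EMT factors compared between the lines, 3 were called higher and 5 lower in HPAF-II, beside 21.1% and 21.6% of all genes. Of the 5 paralogs, 2 were called higher and 2 lower. HMGA2 was lower in HPAF-II (60.6 against 189 rescaled), and FOXC2 was at 0.00588 against 35.3. FOXQ1 was higher in HPAF-II (46.4 against 20.6). Among the paralogs GRHL1 was higher (6.44 against 2.68) and GRHL3 lower (0.893 against 5.77).

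The partners of the factors were described next. Of 7 E proteins and ID proteins, the 3 ID genes ID1, ID2 and ID3 rose after QKI depletion and none fell, beside 14.9% of all genes called higher. ID2 was at 4132, 3285 and 3821 normalized counts in siCtrl and at 6027, 6112 and 6056 in siQKI libraries (log2 fold change 0.70, adjusted p = 4.44e-06). ID1 rose by 0.51 on the log2 scale and ID3 by 0.24, and the ID3 call was lost without siCtrl replicate 3 or without siQKI replicate 1 or 2. After RBFOX2 depletion ID3 fell by 0.48 and the other 6 did not pass. All 3 were higher in siQKI than in siRBFOX2 cells, by 0.74 for ID2, 0.58 for ID1 and 0.72 for ID3 (adjusted p = 5.74e-06, 1.40e-06 and 4.49e-06 from limma). The median of the list was 0.41 in siQKI and -0.04 in siRBFOX2 cells, beside 0.025 and 0.011 over all genes. Between the lines, 1 of the 7 was called higher in HPAF-II, 1 lower and 5 neither, beside 21.1% and 21.6% of all genes called higher and lower. ID2 was higher in HPAF-II, at 196 against 10.9 rescaled, and ID4 lower, at 0 against 0.365.

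Of 15 corepressors that ZEB and Snail proteins recruit, 3 rose and 4 fell after QKI depletion and 2 rose and 7 fell after RBFOX2 depletion. The shares of all genes called lower were 18.1% and 14.5%. AJUBA, a LIM protein that bridges Snail to methyltransferases, rose in both (0.54 and 0.44), and LIMD1, its relative, fell in both (-0.34 and -0.15). CTBP1, the corepressor that ZEB1 recruits, rose by 0.12 in siQKI (a call lost with the replicate block, adjusted p = 0.0595) and fell by 0.24 in siRBFOX2 cells, a difference of 0.36 between them (adjusted p = 2.57e-05 from limma). RCOR1 (CoREST) fell in siRBFOX2 cells only by its own test (-0.31), and differed between the knockdowns by 0.48 (adjusted p = 2.69e-04). Between the lines, 2 of the 15 were called higher in HPAF-II, 2 lower and 11 neither, beside 21.1% and 21.6% of all genes called higher and lower. SMARCA4 (206 in HPAF-II against 15.8 rescaled in PANC-1 siCtrl) and RCOR1 (37.7 against 13.3) were higher. LOXL2 (0.177 against 95.8) and LIMD1 (11.3 against 48.3) were lower.

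Of 14 kinases, ubiquitin ligases and deubiquitinases of Snail tested, 1 rose and 6 fell after QKI depletion and 2 rose and 5 fell after RBFOX2 depletion, beside 18.1% and 14.5% of all genes that fell. FBXL14, a ubiquitin ligase adaptor for Snail family proteins, fell from 4450 to 4843 normalized counts in siCtrl to 2803 to 3487 in siQKI (-0.54, adjusted p = 9.14e-05) and to 3686 to 3948 in siRBFOX2 libraries (-0.31, adjusted p = 0.0105 from limma). PSMD14, a proteasomal deubiquitinase, fell in both (-0.32 and -0.31). PRKD1 fell by 0.28 and 0.37; the first call was lost under 10 of 17 alternatives, the replicate block included (adjusted p = 0.0628), and the second without siRBFOX2 replicate 1 or 3. The medians were -0.22 and -0.03, beside 0.025 and 0.011 over all genes. OTUB1 fell in siQKI cells (-0.28) and differed there from siRBFOX2 cells by -0.26 (adjusted p = 8.22e-04). These are RNA levels of the regulators, and Snail protein was not measured.

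The TGF-beta pathway, a known inducer of these factors, was described by 10 genes. TGFB2, a ligand, rose in both knockdowns (0.70 and 0.64), from 12106 to 12667 normalized counts in siCtrl to 19633 to 20396 in siQKI and 18713 to 20269 in siRBFOX2 libraries. TGFBR2, the type II receptor, fell in both (-0.62 and -0.73). SMAD7, an inhibitory SMAD, rose in siQKI cells (0.46), and TGFB3 fell there (-0.86), while TGFBR3 fell in siRBFOX2 cells (-0.56). In all, 4 rose and 2 fell after QKI depletion and 2 rose and 3 fell after RBFOX2 depletion, where 33.0% and 26.5% of all genes were called.

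Epithelial genes that the repressors are known to act on moved in both directions. Of 32 tested, 9 rose and 5 fell after QKI depletion (median 0.14), and 5 rose and 9 fell after RBFOX2 depletion (median 0.10). Over all genes 14.9% rose and 18.1% fell after QKI depletion (median 0.025), and 12.0% rose and 14.5% fell after RBFOX2 depletion (median 0.011). CDH1 was at 995, 997 and 968 normalized counts in siCtrl, at 3026, 2275 and 2528 in siQKI and at 1438, 1535 and 1322 in siRBFOX2 libraries. The groups did not overlap, with log2 fold changes of 1.39 (SE 0.11, adjusted p = 1.54e-07) and 0.53 (SE 0.11, adjusted p = 0.00177), and CDH1 was higher in siQKI than in siRBFOX2 cells by 0.86 (adjusted p = 3.90e-05).

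TJP3, a tight junction scaffold whose promoter E-box is shown above, rose in siQKI cells from 283 to 337 normalized counts in siCtrl to 611 to 929 (1.25, adjusted p = 2.25e-04). It was at 351 to 548 in siRBFOX2 cells and did not pass there (0.43, adjusted p = 0.148). LLGL2, a polarity protein, rose by 0.88 and 0.38, CDS1, a lipid enzyme, by 0.87 and 0.61, and PLEKHA7, an adherens junction protein, by 0.72 and 0.43 on the log2 scale. The largest called fall of this list after QKI depletion was that of F11R, named after its values were seen, by 0.49 and 0.28. CLDN4, a tight junction claudin and an abundant epithelial gene of these cells, fell by 0.20 and 0.39, and KRT18 by 0.20 and 0.35. The summed epithelial markers were 2550 to 2643 rescaled in siCtrl, 2558 to 2715 in siQKI and 2133 to 2290 in siRBFOX2 libraries. Nearly all of this sum was KRT8, KRT18 and KRT19, and CDH1 added 9.08 or less. The part of these markers in the epithelial counts was not tested. In HPAF-II, 29 of 33 epithelial genes were called higher and 1 lower, beside 21.1% and 21.6% of all genes, and MAL2 was at 420 against 0.0299 rescaled.

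More mesenchymal genes rose than fell. Of 18 tested, 9 rose and 2 fell after QKI depletion and 7 rose and 1 fell after RBFOX2 depletion, with medians of 0.30 and 0.18. Over all genes 14.9% rose and 18.1% fell after QKI depletion and 12.0% rose and 14.5% fell after RBFOX2 depletion, with medians of 0.025 and 0.011. COL1A1, which encodes collagen, was at 3869 to 4282 normalized counts in siCtrl, 7589 to 8969 in siQKI and 4460 to 6618 in siRBFOX2 libraries (0.99, adjusted p = 5.29e-06, and 0.42, adjusted p = 0.00970). MMP2, a matrix metalloproteinase, rose by 0.65 and 0.44, and CDH2 (N-cadherin) by 0.26 and 0.22. LOX rose by 0.88 and 0.89, and its calls were lost without siCtrl replicate 1 or 2, without siQKI replicate 2 or 3, or without siRBFOX2 replicate 1 or 2. AXL, a receptor tyrosine kinase, fell by 0.84 and 0.18. VIM (vimentin), named after its values were seen, fell by 0.13 in siQKI cells (adjusted p = 0.0152 from limma). It did not pass in siRBFOX2 cells (-0.05). In HPAF-II, 12 of 19 were called lower and 3 higher, beside 21.6% and 21.1% of all genes, and CDH2, MMP2 and COL5A1 were listed at 0.

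A sum of fibroblast markers was higher in siQKI libraries, mostly through COL1A1, which is also in the mesenchymal list. The sum of 6 markers was 12.1 to 13.9 rescaled in siCtrl, 25.9 to 29.3 in siQKI and 15.4 to 23.1 in siRBFOX2 libraries, and COL1A1 alone made up 23.1 to 26.9 in siQKI libraries. PDGFRB, named after its values were seen, was at 0.530 to 0.853 in siCtrl, 1.80 to 2.09 in siQKI and 0.787 to 1.99 in siRBFOX2 libraries, and COL3A1 overlapped between the groups. DCN, a defining fibroblast marker, was listed at 0 in all PANC-1 libraries, and COL1A2 and LUM were listed at 0 in siCtrl and at 0.0287 or less in siQKI libraries. The part of this sum in the mesenchymal counts was not tested.

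**Figure D4:**
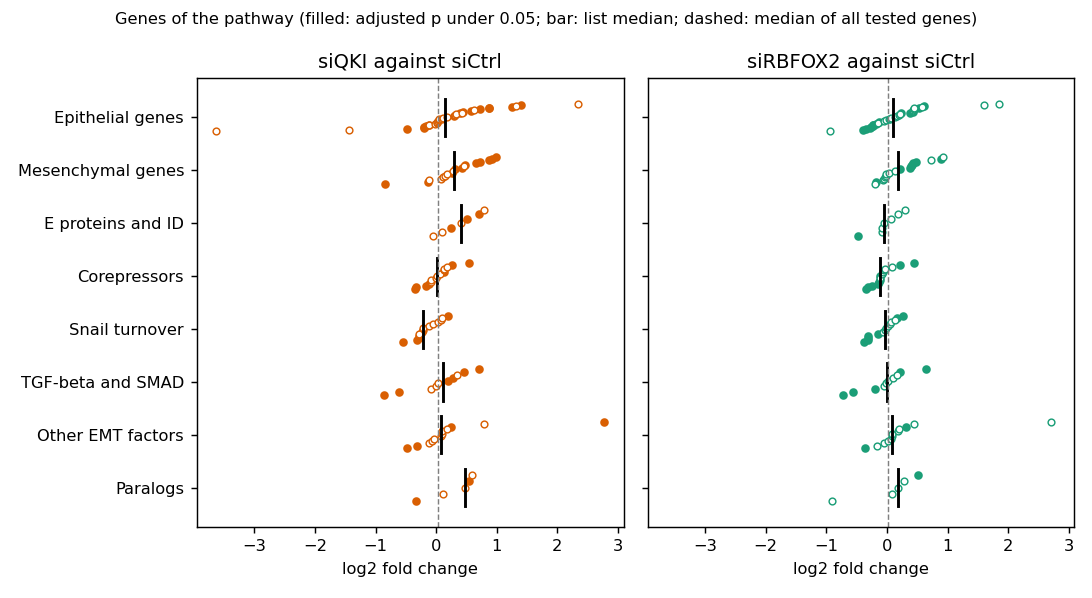
Log2 fold changes (horizontal axes, the same scale) of genes related to the members after depletion of QKI (left) and RBFOX2 (right); each point is 1 gene, filled where the adjusted p was under 0.05, with the list median as a bar and the median of all tested genes dashed. E proteins and ID genes have a median of 0.41 in siQKI and -0.04 in siRBFOX2, and epithelial and mesenchymal genes both lie on either side of 0.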

How the data were processed

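PolyA-selected RNA was sequenced as 150 bp read pairs, and the submitters' processing notes name STAR 2.7.5a and hg38. The study's list of software names another version of STAR, and featureCounts, without saying for which data. The deposited signal values are gene counts of the FAST DB annotation that the authors divided by DESeq2 size factors, apart for each cell line; strand is not given in the sources used here. Values are whole multiples of 1 step (within 0.01), but 82.1% to 84.8% of values of 1 to 30 steps are multiples of 3, so fragments cannot be counted from them, depth is unknown, and the planned count test was not run.

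PANC-1 groups were tested with limma 3.58.1 (R 4.3.3; eBayes with trend, no block) on log2(normalized count + 1) for genes with a mean of at least 10, with Benjamini-Hochberg adjustment over 22544 genes. The cell lines were described by rescaled values with a pseudocount of 0.01. Exon lengths came from GENCODE, whose gene bounds differ from those of FAST DB for some members. ZEB2, for one, spans 144364364 to 144524583 in GENCODE and 144384081 to 144520349 in FAST DB. On simulated data for siQKI against siCtrl (22091 genes), 105 of 200 genes changed 2-fold were recovered, all in the right direction, beside 9 false calls. Only these 200 genes were changed there, whereas 7432 of 22544 were called in the data. The share recovered thus does not give the sensitivity of the real comparison. Members and lists were chosen with earlier results of these data known. Named list genes are, per list and comparison, up to 4 with the largest change past the threshold and a mean of at least 50; others given only for group counts were chosen after their values were seen, and 1 gene that the rule names is not reported here. Alternatives were pseudocounts of 0.1 and 10, no filter or a mean of at least 50, upper-quartile rescaling, a replicate block, no trend, only the groups compared, and each library left out. Over all genes, no pairing of the libraries by replicate number was seen. Figures were drawn with matplotlib 3.10.9.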

Additional observations from a re-analysis of the deposited data

How the results depend on the processing

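The calls of SNAI1 and ZEB1 and of SNAI2 in siQKI cells held under all 17 alternatives. The number of members called was 3 to 5 of 8 for siQKI, 1 to 2 for siRBFOX2 (2 without siRBFOX2 replicate 3, when ZEB2 passed) and 2 to 4 for siQKI against siRBFOX2 when each library was left out or another setting was used. For the SNAI2 change in siQKI cells the fits without siQKI replicate 1 and replicate 2 gave -0.96 and -1.79. Directions of members that were not called turned in some fits. With a pseudocount of 0.1, OVOL1 in siRBFOX2 cells was -0.15, and with a pseudocount of 10 OVOL1 in siQKI against siRBFOX2 was -0.15. Leaving out 1 library gave log2 ranges of -1.05 to 0.32 for PRRX1 in siQKI cells, and in siRBFOX2 cells of -0.039 to 0.066 for ZEB1, -0.23 to 1.37 for PRRX1, -0.62 to 2.78 for OVOL1 and -0.28 to 0.67 for OVOL2. Between siQKI and siRBFOX2 the ranges were -0.23 to 0.37 for ZEB2 and -1.41 to 1.98 for OVOL1. The cause was not tested. With a replicate block the members called were 4, 1 and 3, as without it, and 50 and 46 list genes passed in siQKI and siRBFOX2 cells, against 54 and 47. For the pairing, the deviations of each library from the mean of its group were correlated, not the libraries themselves. Deviations of libraries with the same number had r from -0.03 to 0.02 over 9 pairs, and 3 of 9 libraries correlated best with their own number. No pairing by number was thus seen over all genes, which does not decide it for single genes. TWIST2, for one, was lowest in replicate 3 of each PANC-1 group. The list calls that the block ended were CTBP1, GSC, LSR and PRKD1 in siQKI cells and FBN1 in siRBFOX2 cells, with adjusted p-values of 0.0502 to 0.0638. Calls of PRRX2, SOX4 and ID3 in siQKI cells and of COL1A1 and FBXL14 in siRBFOX2 cells were lost without the mean-variance trend. Upper-quartile rescaling moved the genes called higher in siQKI cells from 3362 of 7432 to 4225 of 7282. The depth in fragments is unknown, so differences of genes with few counts, such as OVOL1 and PRRX1, were not detectable beyond their intervals.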

Other observations

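MIR200CHG, the host gene of miR-200c and miR-141, which are known to act on ZEB1 and ZEB2, was examined after its values were seen. It was listed at 0 in 8 of 9 PANC-1 libraries and at 10.3 normalized counts in siQKI replicate 1, and at 29.6, 61.9 and 176 in the HPAF-II libraries. The mature miRNAs were not measured in these polyA-selected libraries. LYZ, listed among the immune markers, was at 1052 to 1164 rescaled in HPAF-II and at 0.268 or less in PANC-1 libraries, while PTPRC was listed at 0 in HPAF-II.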
